A study of Homo sapiens with 12 samples.

Results

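APOL1, APOL2, APOL3 and APOL6 are 4 members of the human apolipoprotein L family that cells are known to switch on with interferon. They were described here in 3 human cancer cell lines given nucleic acids that fold into G-quadruplexes (G4, stacked squares of guanine). Every probe set of the array whose annotation names 1 of these genes and no other gene was taken. That gave 8 probe sets of the 54675 on the array: 1 for APOL1 (209546_s_at), 2 for APOL2 (221013_s_at and 221653_x_at), 1 for APOL3 (221087_s_at) and 4 for APOL6 (1557116_at, 1557236_at, 219716_at and 241869_at). No probe set that names several genes named a member. Probe sets with an x in their name, and to a lesser degree those with an s, may also match transcripts of related genes, and the APOL genes resemble each other.

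The tested treatments were (uuaggg)4, an RNA oligonucleotide with the telomeric repeat, and AS1411, a guanine-rich DNA aptamer known to bind nucleolin. The controls were (uuaccc)4, an RNA in which cytosines take the place of the guanines, and the transfection reagent alone. Each treatment was applied to PC-3 (labelled prostate cancer), HBC4 (labelled breast cancer) and MKN74 (labelled gastric cancer), with 1 array for each line and treatment, 12 arrays in all. In every group 300000 cells were reverse-transfected with Lipofectamine RNAiMAX, grown in DMEM on a surface they do not stick to, which keeps them in 3D culture, and harvested after 72 h. The oligonucleotide groups received 1.0 µg per well, about 100 pmol. AS1411 has no DNA control of matched sequence here, so its reference was the reagent alone. The labels name no separate cultures, so the 3 lines stand as replicates of a treatment, and p-values measure the spread between these arrays.

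The APOL proteins share amphipathic helices that insert into membranes. APOL1 is secreted, travels on high-density lipoprotein (HDL) particles and kills African trypanosomes by forming channels in their membranes. The other members act inside the cell: APOL3 is known as an interferon-induced protein that breaks up bacterial membranes together with guanylate-binding proteins, and APOL6 is known to kill human cancer cells when it is overproduced. APOL2 is an intracellular member whose role is less settled. The 4 genes lie close together on chromosome 22, with APOL4 and APOL5 between them.

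The deposited values are log2 expression values in which every probe set has a median of 0 over the 12 arrays. A value of 1 therefore means a signal 2-fold above that probe set's own median, and neither the level of a gene nor its detection can be read. Differences between arrays are intact. Arrays grouped by line, with a lowest correlation of 0.856 within a line and a highest of -0.171 between lines. Centring each probe set over these same arrays lowers correlations between lines, so the sign below 0 is not a result. Several tissue markers went against or did not bear out the labels. The gastric markers TFF1 and TFF2 averaged 8.15 and 8.26 in PC-3 but -0.15 and -0.60 in MKN74, where a gastric line would be looked for. The prostate antigen gene KLK3, the only prostate marker with a probe set named here, lay between -0.27 and 0.32 in the line means of its 3 probe sets. The breast marker ESR1 was highest in HBC4 on 205225_at, at a mean of 3.24, while its other 8 probe sets had line means between -0.135 and 0.129. The other breast markers, TRPS1 and GATA3, went with the HBC4 label and were highest there on every probe set. TRPS1 on 218502_s_at averaged 1.75 in HBC4, -0.01 in PC-3 and -1.83 in MKN74. GATA3 on 209602_s_at averaged 0.215 in HBC4, close to 0.031 in MKN74, and -5.21 in PC-3. Among genes chosen after their values were seen, CTNNA1, which PC-3 is known to lack, had a mean in PC-3 minus the mean of the other lines of -8.45 on its most affected probe set, and the prostate antigen gene STEAP1 had 5.43. The lines are called by their labels below.

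The 4 genes were lower with the G4 oligonucleotides than with the controls on 7 of 8 probe sets. APOL1 and 1 of the 2 probe sets of APOL2 passed the test, APOL3 missed it narrowly, and APOL6 passed it on all 4 probe sets in PC-3 but in no other line. The log2 fold change, the mean of the G4 arrays minus that of the control arrays, had a median of -0.71 over the 8 probe sets, against 0.02 over all 54613 probe sets tested. By limma, with cell line as a block and Benjamini-Hochberg adjustment over all probe sets, 2 of the 8 fell at an adjusted p under 0.05 and 0 rose, where 1.1% of all probe sets fell and 0.474% rose. On bulk arrays fewer cells that express a gene and less RNA per cell cannot be told apart.

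APOL1, the secreted trypanosome-lysing factor, had log2 values of -0.47 with (uuaggg)4 and -0.45 with AS1411 in PC-3, against 0.11 with (uuaccc)4 and 0.09 with reagent alone. In HBC4 it had 0.74 and 0.73 with (uuaggg)4 and AS1411, against 2.21 and 1.50 with (uuaccc)4 and reagent alone. In MKN74 it had -0.64 and -0.26 with (uuaggg)4 and AS1411, against -0.10 and -0.09 with (uuaccc)4 and reagent alone. The G4 and control arrays did not overlap in any line, and HBC4 had the 4 highest values in the series. The log2 fold change was -0.68 ± 0.40 (SD over n = 3 lines), a 1.60-fold decrease (SE 0.136, limma adjusted p = 0.0332). Leaving out 1 array at a time ended this call in 9 of 12 fits, at adjusted p-values of 0.056 to 0.102. It held without the (uuaccc)4 array of HBC4 or of MKN74, or without the AS1411 array of MKN74.

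APOL2 gave different answers on its 2 probe sets. On 221653_x_at the values in PC-3 were -0.64 and -0.45 with (uuaggg)4 and AS1411, against 0.26 and 0.06 with (uuaccc)4 and reagent alone. In HBC4 they were 0.01 and -0.05 with (uuaggg)4 and AS1411, against 0.24 and 0.30 with (uuaccc)4 and reagent alone. In MKN74 they were -0.49 and -0.26 with (uuaggg)4 and AS1411, against 0.07 and -0.01 with (uuaccc)4 and reagent alone. The G4 arrays lay below the control arrays in each line, by a margin that was small next to those of APOL3 and APOL6 in PC-3. The log2 fold change was -0.47 ± 0.21 (SD, n = 3 lines; SE 0.084, limma adjusted p = 0.02). The call was lost without any of the 4 PC-3 arrays, the reagent or AS1411 array of HBC4, or the (uuaggg)4 array of MKN74, at adjusted p-values of 0.0517 to 0.063.

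The other APOL2 probe set, 221013_s_at, hardly moved on any array, with a range of 0.35 over the 12 arrays. Its log2 fold change was 0.08 ± 0.08 (SD, n = 3 lines; limma adjusted p = 0.595), with a 95% interval of -0.06 to 0.22. The G4 and control values overlapped in every line. After removal of line means the 2 probe sets correlated at -0.362 over the 12 arrays. The fall of APOL2 therefore rests on 221653_x_at alone, the one whose name carries an x.

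APOL3, the interferon-induced antibacterial member, had log2 values in PC-3 of -0.55 and -0.60 with (uuaggg)4 and AS1411, against 0.40 and 0.45 with (uuaccc)4 and reagent alone. In HBC4 it had 0.95 and 1.25 with (uuaggg)4 and AS1411, against 2.48 and 1.75 with (uuaccc)4 and reagent alone. In MKN74 it had -0.81 and -0.83 with (uuaggg)4 and AS1411, against -0.40 and -1.04 with (uuaccc)4 and reagent alone. The groups were apart in PC-3 and HBC4 and overlapped in MKN74, where the reagent array was the lowest of the 4. The log2 fold change was -0.70 ± 0.52 (SD, n = 3 lines; SE 0.159), and the limma adjusted p of 0.0529 missed the threshold. Without the reagent array or the (uuaggg)4 array of MKN74 it passed (adjusted p = 0.0228 and 0.0391), and also with MKN74 left out whole (adjusted p = 0.0112).

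APOL6, the member tied to cell death, changed mainly in PC-3. On 1557236_at the PC-3 values were -0.86 and -1.46 with (uuaggg)4 and AS1411, against 1.11 and 1.10 with (uuaccc)4 and reagent alone. The HBC4 values were 0.86 and 0.99 with (uuaggg)4 and AS1411, against 1.38 and 1.19 with (uuaccc)4 and reagent alone. The MKN74 values were -2.86 and -3.22 with (uuaggg)4 and AS1411, against -2.87 and -2.83 with (uuaccc)4 and reagent alone. The gap in PC-3 was wide, that in HBC4 was narrow, and in MKN74 the groups overlapped.

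The probe set 219716_at of APOL6 had PC-3 values of -0.71 and -0.87 with (uuaggg)4 and AS1411, against 0.71 and 1.04 with (uuaccc)4 and reagent alone. Its HBC4 values were 1.55 and 1.78 with (uuaggg)4 and AS1411, against 2.11 and 1.97 with (uuaccc)4 and reagent alone. Its MKN74 values were -2.18 and -2.68 with (uuaggg)4 and AS1411, against -2.02 and -1.98 with (uuaccc)4 and reagent alone. Here the G4 arrays were below the controls in all 3 lines. The remaining probe sets, 1557116_at and 241869_at, showed the same wide gap in PC-3. The first overlapped in MKN74, where its AS1411 value of -1.83 was above both controls. The second overlapped in HBC4, where (uuaggg)4 gave 1.82 and reagent alone 1.64.

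Over the 3 lines the log2 fold changes of APOL6 were -0.94 ± 1.15 on 1557236_at, -0.82 ± 0.73 on 219716_at, -0.80 ± 0.65 on 241869_at and -0.72 ± 0.63 on 1557116_at (SD, n = 3 lines). The limma adjusted p-values ran from 0.0671 for 219716_at to 0.139 for 1557236_at, so none of the 4 passed. The SDs were as large as or close to the means. Without PC-3 the values came to -0.28 on 1557236_at, -0.402 on 219716_at, -0.46 on 241869_at and -0.362 on 1557116_at.

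An exact two-sided permutation of the arrays within lines allows 216 arrangements and no p below 0.00926. APOL1, APOL2 on 221653_x_at and APOL6 on 219716_at reached that smallest value. The other APOL6 probe sets gave exact p-values of 0.0185 (1557236_at), 0.0278 (241869_at) and 0.0648 (1557116_at), APOL3 gave 0.0278, and APOL2 on 221013_s_at gave 0.157. These p-values are for single probe sets and are not adjusted. Both G4 arrays lay below both control arrays in every line for 3 of 8 APOL probe sets, against 2.98% of all probe sets. Within single lines that held for 7 of 8 in PC-3 (21.8% of all probe sets), 6 of 8 in HBC4 (19.9%) and 4 of 8 in MKN74 (20.2%).

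The 2 G4 oligonucleotides were then set against their own controls, with 3 arrays a side. For (uuaggg)4 against (uuaccc)4, 0 of 8 APOL probe sets passed limma's adjusted p of 0.05 (0.165% of all probe sets did), and 6 of 8 had an unadjusted p under 0.05 (9.26% of all). The largest log2 fold changes were those of APOL3 (-0.96 ± 0.56), APOL1 (-0.86 ± 0.53) and APOL6 on 1557116_at (-0.86 ± 0.54, SD, n = 3 lines). For AS1411 against reagent alone, 0 of 8 passed (0.35% of all probe sets did), and 5 of 8 had an unadjusted p under 0.05 (11.8% of all). There the largest were those of APOL6 on 1557236_at (-1.05 ± 1.31) and 219716_at (-0.93 ± 0.88), while APOL1 had -0.49 ± 0.30 and APOL3 -0.44 ± 0.63 (SD, n = 3 lines). Adjusted p-values were 0.157 or more in the RNA comparison and 0.224 or more in the AS1411 comparison.

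The RNA and DNA G4 oligonucleotides were not told apart by the APOL genes. (uuaggg)4 against AS1411 gave log2 fold changes from -0.43 to 0.36, and 0 of 8 passed in limma (0% of all probe sets did), with 0 of 8 at an unadjusted p under 0.05 (4.82% of all). For APOL1 the 95% interval of that difference was -0.55 to 0.29 and for APOL3 -0.57 to 0.41. The widest interval was that of APOL6 on 1557236_at, at -0.615 to 1.176. These intervals leave room for differences of that size at 3 arrays a side. The control RNA (uuaccc)4 against reagent alone likewise gave 0 of 8 in limma (0% of all probe sets), with 0 of 8 at an unadjusted p under 0.05 (3.12% of all). APOL3 had the largest value of that comparison, 0.44 ± 0.43 (SD over the lines), with an unadjusted limma p of 0.0734. In HBC4 the (uuaccc)4 array was above the reagent array by 0.73 for APOL3 and by 0.72 for APOL1, and these 2 genes had their highest value of all 12 arrays there.

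Within the lines, the 2 G4 arrays were tested against the 2 control arrays in a model that gives each line its own effect. The 2 arrays of a class in a line are different treatments that stand as replicates, as no treatment was repeated within a line. The p-values therefore measure the spread between treatments of a class, pooled over the lines, and not between repeats of a treatment. In PC-3, 5 of 8 APOL probe sets fell (0.798% of all probe sets fell there): all 4 of APOL6 and 221653_x_at of APOL2. APOL6 was 4.81-fold lower on 1557236_at (log2 fold change -2.27, SE 0.181, limma adjusted p = 5.92e-05) and 3.17-fold lower on 219716_at (-1.66, SE 0.168, adjusted p = 3.61e-04). Both calls held with each of the 12 arrays left out in turn. On 241869_at the log2 fold change was -1.47 (adjusted p = 0.029), a call lost without the reagent, (uuaggg)4 or AS1411 array of PC-3 (adjusted p = 0.0887 to 0.23). On 1557116_at it was -1.44 (adjusted p = 0.0343), a call lost without any single array of PC-3 or HBC4 (adjusted p = 0.0555 to 0.207). APOL2 had -0.70 on 221653_x_at (adjusted p = 0.016), lost without the reagent, (uuaccc)4 or (uuaggg)4 array of PC-3 (adjusted p = 0.0528 to 0.147).

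In HBC4, APOL1 and APOL3 had the lowest log2 fold changes of the family. APOL1 was 2.17-fold lower (log2 fold change -1.12, SE 0.193, limma adjusted p = 0.0157) and was the only APOL probe set of 8 to fall (0.981% of all probe sets fell there). Its call was lost without the (uuaccc)4, (uuaggg)4 or AS1411 array of HBC4 (adjusted p = 0.0585 to 0.13). APOL3 had -1.01 (adjusted p = 0.061), close to its -0.995 in PC-3 (adjusted p = 0.0763). The 4 APOL6 probe sets had between -0.43 and -0.18 in HBC4. In MKN74, 0 of 8 passed in limma (0.652% of all probe sets fell there), and 3 of 8 had an unadjusted p under 0.05 (12.1% of all). Those were APOL6 on 241869_at (-0.74) and 219716_at (-0.42, 1.34-fold) and APOL2 on 221653_x_at (-0.41), with adjusted p-values of 0.187 or more.

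**Figure D1:**
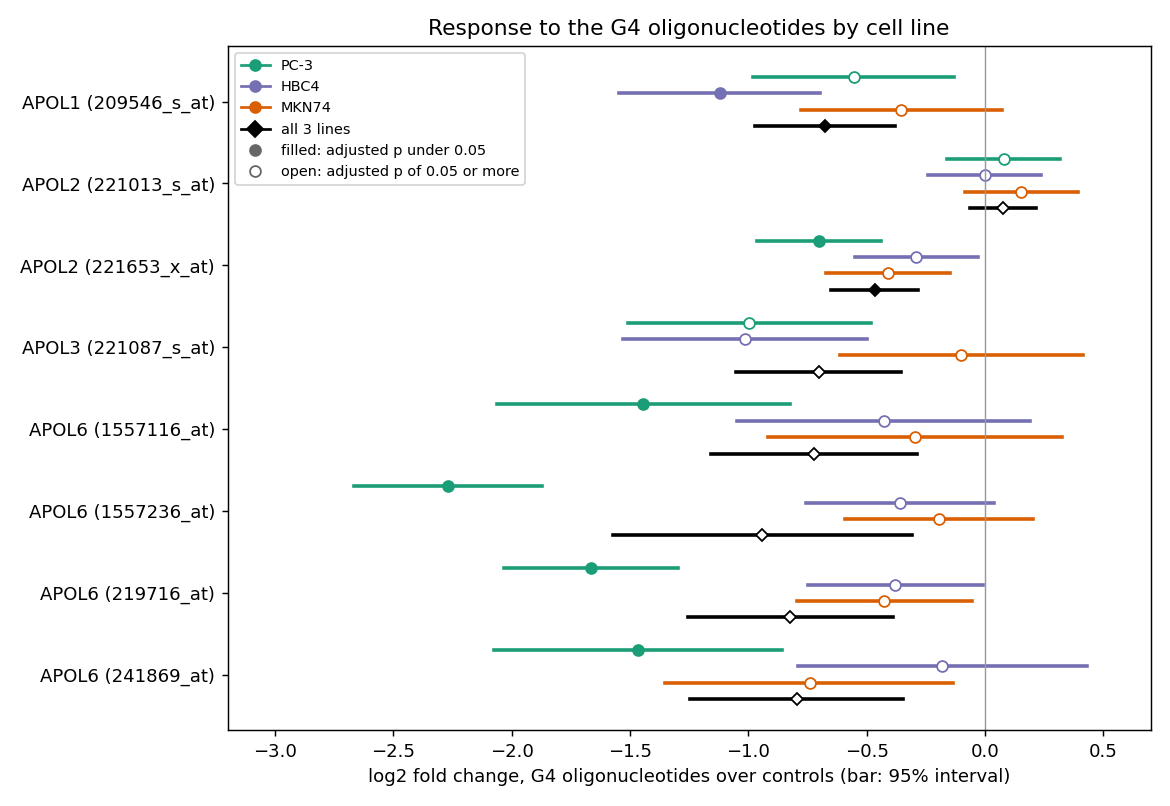
Log2 fold change of the G4 oligonucleotides over the controls (horizontal axis) for each APOL probe set (rows), in each cell line and over the 3 lines, with 95% intervals as bars, where filled symbols have a limma adjusted p under 0.05. The PC-3 values of APOL6 lie between -2.27 and -1.44, to the left of its HBC4 and MKN74 values, and the APOL1 value of HBC4 lies at -1.12.

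Whether the lines differ in the response was tested with an F test of the interaction of line and oligonucleotide class. APOL6 on 1557236_at passed (limma adjusted p = 0.00898), 1 of 8 APOL probe sets against 0.487% of all probe sets. The next was APOL6 on 219716_at (adjusted p = 0.0523), and the other 6 had adjusted p-values of 0.326 or more. On 1557236_at the effect in PC-3 was lower than that in HBC4 by 1.91 on the log2 scale (95% interval of the difference -2.47 to -1.35), and the difference between PC-3 and MKN74 was -2.07. The intervals of PC-3 minus HBC4 stayed below 0 on all 4 APOL6 probe sets. For PC-3 minus MKN74 that was so on 3 of 4, and on 241869_at the interval ran from -1.59 to 0.14. Between HBC4 and MKN74 the effect on APOL1 differed by -0.77 (-1.37 to -0.17) and that on APOL3 by -0.91 (-1.64 to -0.19). These intervals are not adjusted for the number of probe sets, and the interaction did not pass for APOL1 (adjusted p = 0.398) or APOL3 (adjusted p = 0.349).

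The lines also differed in the control arrays, which received no G4 oligonucleotide. APOL3 and APOL6 were ordered HBC4, PC-3, MKN74 on every probe set, from high to low. The 3 contrasts share arrays, since each line's 2 control arrays serve in 2 of them. Those 2 arrays, (uuaccc)4 and reagent alone, are different treatments that stand as replicates of a line. In HBC4 against MKN74, 6 of 8 APOL probe sets were higher (16.8% of all probe sets were). The log2 differences were 4.75, 4.32, 4.13 and 4.05 for APOL6 on 241869_at, 1557116_at, 1557236_at and 219716_at, of which the first is a 26.8-fold difference. APOL3 differed by 2.83 (7.13-fold) and APOL1 by 1.95 (3.86-fold), each with a limma adjusted p of 6.42e-06 or less.

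In HBC4 against PC-3, 5 of 8 were higher (20.2% of all probe sets were): APOL1 by 1.76, APOL3 by 1.69, and APOL6 by 1.49, 1.17 and 1.06 on 1557116_at, 219716_at and 241869_at. On the remaining APOL6 probe set, 1557236_at, the test did not pass (0.18, 95% interval -0.22 to 0.57, limma adjusted p = 0.494). With quantile normalization it did, at 0.589 (adjusted p = 0.0182), the only 1 of 16 alternatives to call it. The call on 241869_at was lost without the (uuaccc)4 array of PC-3 or that of HBC4 (adjusted p = 0.0967 and 0.0902). In MKN74 against PC-3, 5 of 8 were lower (20.3% of all probe sets were). APOL6 was lower by 3.95 on the log2 scale on 1557236_at (log2 difference -3.95, 15.5-fold) and had differences of -3.69 to -2.82 on the others, and APOL3 had -1.14. APOL1 did not pass between these 2 lines (-0.19, interval -0.62 to 0.23, adjusted p = 0.469). Neither probe set of APOL2 passed between any pair of lines, with differences from -0.13 to 0.24.

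**Figure D2:**
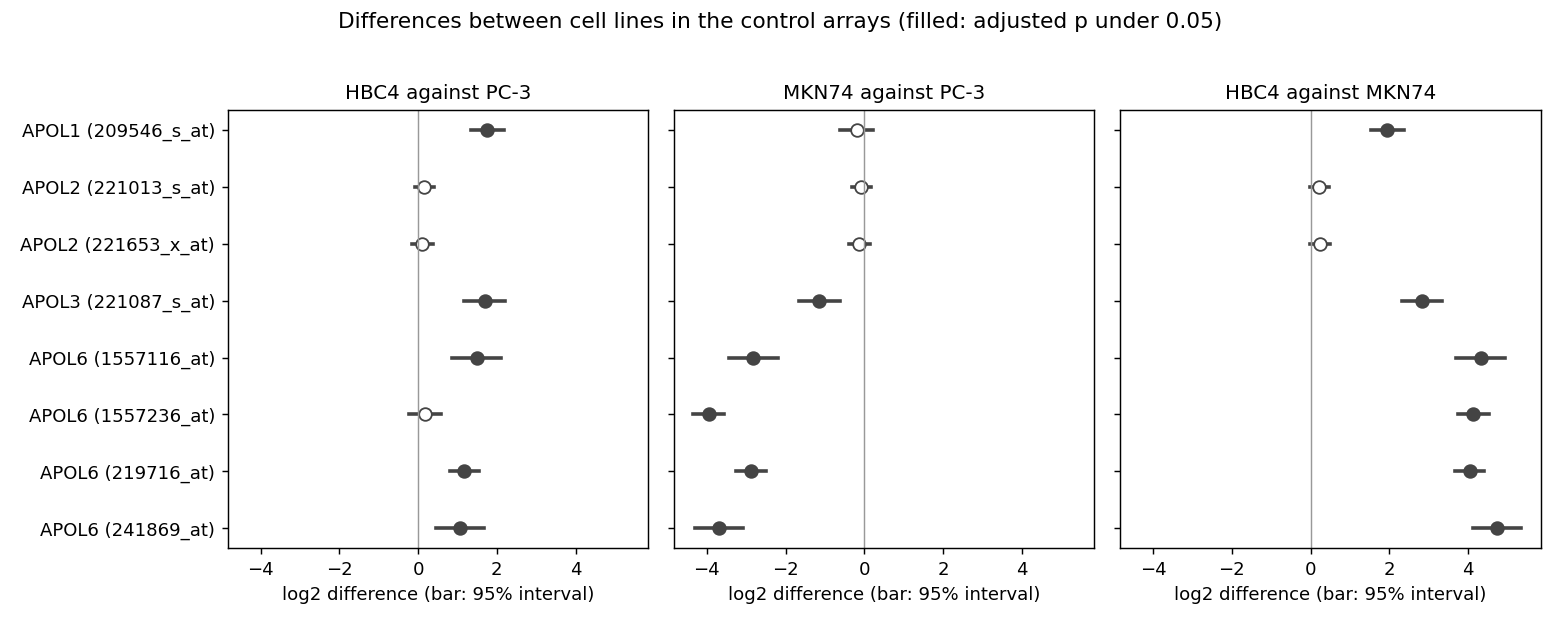
Log2 difference between cell lines in the control arrays (horizontal axis) for each APOL probe set (rows), with 95% intervals as bars and filled symbols where the limma adjusted p is under 0.05. APOL6 lies at 4.05 to 4.75 in HBC4 against MKN74 and at -3.95 to -2.82 in MKN74 against PC-3, while both probe sets of APOL2 lie near 0 in all 3 panels.

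Line and treatment therefore carried very different shares of the variation among the 12 arrays. Differences between line means made up 86.2% to 93.7% of the sum of squares for the APOL6 probe sets, 82.4% for APOL3 and 75.4% for APOL1. Differences between the G4 and control classes made up 3.4% to 6.55% for APOL6, 10.2% for APOL3 and 16.7% for APOL1. The 2 probe sets of APOL2 differed: 221653_x_at had 23.6% between lines and 61.2% between classes, and 221013_s_at had 39.03% between lines and 14.48% between classes. As MKN74 started lowest for APOL6 and the values are centred, how much room was left for a fall in that line cannot be read here.

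After each line's mean was removed, the members followed each other over the 12 arrays to different degrees. APOL1 and APOL3 correlated at 0.87, and pairs of APOL6 probe sets at 0.577 to 0.965. APOL1 correlated less with APOL6, at 0.498 to 0.649. These are descriptions over arrays that share lines and treatments. By the same measure the probe sets of other genes most like APOL1 were SLC35F5 (0.973) and CNOT8 (0.973). For APOL3 they were USP33 (0.968) and TUG1 (0.957), and for APOL6 on 241869_at alone CES2 (0.957) and AP5M1 (0.957). For APOL2 on 221653_x_at they were IRF1 (0.978) and RNF216 (0.97). These are the highest values picked from 41091 probe sets that name 1 gene, with no p, so they do not establish a link. IRF1, an interferon-induced transcription factor, itself fell with the G4 oligonucleotides (log2 fold change -0.52, limma adjusted p = 0.0175). None of the other genes nearest to a member, 5 for each member, passed in that comparison.

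None of the genes around the APOL genes passed the test over the 3 lines, a test that few of all probe sets passed. Between and beside the 4 members on chromosome 22 lie 19 other protein-coding genes when 8 are taken on each side, in the RefSeq gene order of GRCh38.p14. For 18 of them 32 probe sets were measured, and 0 passed in limma for the G4 oligonucleotides against controls. Of all probe sets 1.1% fell and 0.474% rose, so this count does not set the neighbours apart. Their median log2 fold change was 0.01. MCM5, a helicase subunit of DNA replication, had the smallest p (0.35, adjusted p = 0.0955), and MYH9, a non-muscle myosin chain beside APOL1, had 0.12 (adjusted p = 0.366). Within the lines 1 of the 32 passed, MCM5 on 216237_s_at, which rose in HBC4 (0.63, adjusted p = 0.0309). The family members APOL4, APOL5 and the more distant APOLD1, 5 probe sets in all, had 0 calls and a median of 0.02. At the same shares of all probe sets, that count does not set them apart either. APOL4, which lies between APOL3 and APOL2, had 0.02, 0.09 and 0.04 on its 3 probe sets, APOL5 had -0.01, and APOLD1, a vascular gene, had -0.38 (adjusted p = 0.14).

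**Figure D3:**
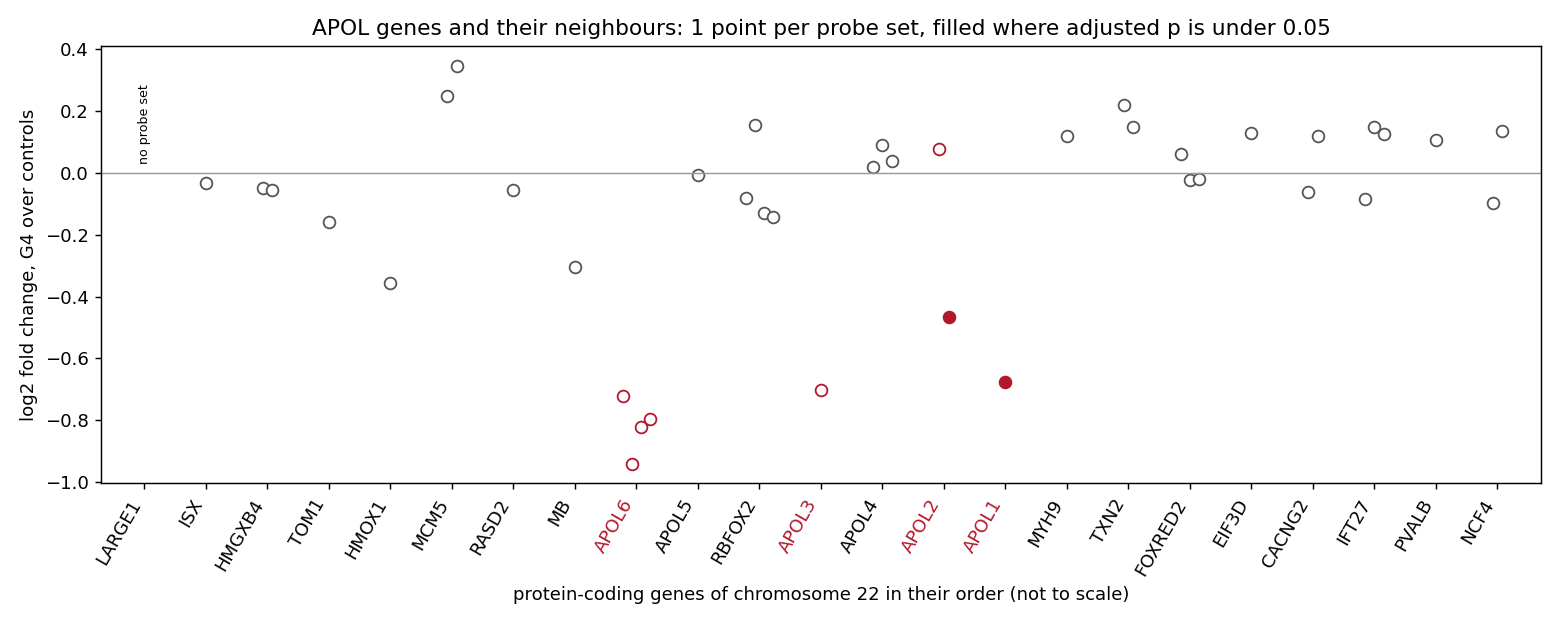
Log2 fold change of the G4 oligonucleotides over the controls (vertical axis) for the APOL genes (red) and the protein-coding genes around them (grey), 1 point per probe set, in chromosomal order along the horizontal axis and not to scale. All red points but 1 lie at -0.47 or lower, and no grey point is filled, the mark of a limma adjusted p under 0.05.

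Other genes of the pathways that APOL proteins belong to were followed on lists. Like the members, these lists were chosen with earlier results of these data known. Their counts are therefore no independent evidence of a direction. Of the guanylate-binding proteins, the interferon-induced partners of APOL3 in attacking bacteria, 6 of 11 probe sets fell (1.1% of all probe sets did), on 4 of 5 genes, with a median log2 fold change of -0.75. GBP1 had -1.50 (adjusted p = 0.0448), GBP3 -0.80 (adjusted p = 0.00157), GBP4 -0.75 (adjusted p = 0.0481) and GBP5 -0.50 (adjusted p = 0.0353), while GBP2 had -0.62 without passing (adjusted p = 0.221). By line, 7 of 11 fell in PC-3 (0.798% of all probe sets), 7 of 11 in HBC4 (0.981%) and 1 of 11 in MKN74 (0.652%). In the control arrays 8 of 11 were higher in HBC4 than in MKN74 (16.8% of all probe sets), with a median difference of 1.59. Over all 4 arrays of a line, GBP1 on 231577_s_at was lowest in MKN74, like APOL3 and APOL6. Its mean was -3.79 there against 0.71 in PC-3 and 1.35 in HBC4. The GBP1 probe set 231578_at was not lowest there, with 0.06 in MKN74, -0.16 in PC-3 and 0.07 in HBC4.

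Of the interferon receptors and signalling genes, 5 of 33 probe sets fell and 0 rose (median -0.11; 1.1% of all probe sets fell and 0.474% rose), on 4 of 15 measured genes. These were the transcription factors IRF1, IRF7 (-1.09, adjusted p = 0.00105) and IRF9 (-0.99, adjusted p = 0.00612) and the feedback protease USP18 (-2.12, adjusted p = 6.21e-04). No measured receptor chain or JAK kinase passed. IRF1 was lowest in MKN74, with a mean of -2.96 against 0.05 in PC-3 and 0.48 in HBC4. Of 20 interferon-stimulated genes, all 30 probe sets fell, with a median of -2.32. That list was chosen with its response in these samples known, so it is no independent evidence of a direction and no yardstick for the size of the APOL values.

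The lists tied to the proteins' other roles differed in their calls. For the trypanosome-killing HDL particle on which APOL1 travels, 0 of 12 probe sets passed (median 0.06), where 1.1% of all fell and 0.474% rose. APOA1 had 0.14 (adjusted p = 0.431) and HPR, the haptoglobin-related protein, had 0.10 (adjusted p = 0.627). Of the BCL2 family, the regulators of mitochondrial cell death, 3 of 34 probe sets fell (median -0.06; 1.1% of all fell): both of PMAIP1, which promotes cell death (-0.61 and -0.65, adjusted p = 0.012 and 0.003), and 1 of BCL2L1, whose main product blocks it (-0.42, adjusted p = 0.0425). Of the NF-kB and TNF targets 1 of 21 fell (median -0.22, with 1.1% of all falling), a probe set of TNFAIP3 at -0.53 (adjusted p = 0.0221). By line, 2 of these 21 fell in PC-3 (0.798% of all probe sets), 1 in HBC4 (0.981%) and 1 in MKN74 (0.652%). Of the 34 in the BCL2 family, 1 fell and 1 rose in PC-3, 0 passed in HBC4 and 2 fell in MKN74. All adjusted p-values in the lists are limma's over all probe sets. None of the 7 lists of cell type and tissue markers had a probe set past the threshold for the G4 oligonucleotides against controls over the 3 lines, within PC-3 or within MKN74. Over the 3 lines 1.1% of all probe sets fell and 0.474% rose. Within lines 0.798% fell in PC-3, 0.652% in MKN74 and 0.981% in HBC4. With shares this small, having no calls does not set these lists apart from all probe sets. Within HBC4, where APOL1 fell, 2 marker probe sets fell as well: ESR1 on 205225_at (-1.11, adjusted p = 0.00138) and the collagen gene COL1A1, a fibroblast marker, on 1556499_s_at (-0.825, adjusted p = 0.00812). Their part in the APOL1 result was not tested.

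**Figure D4:**
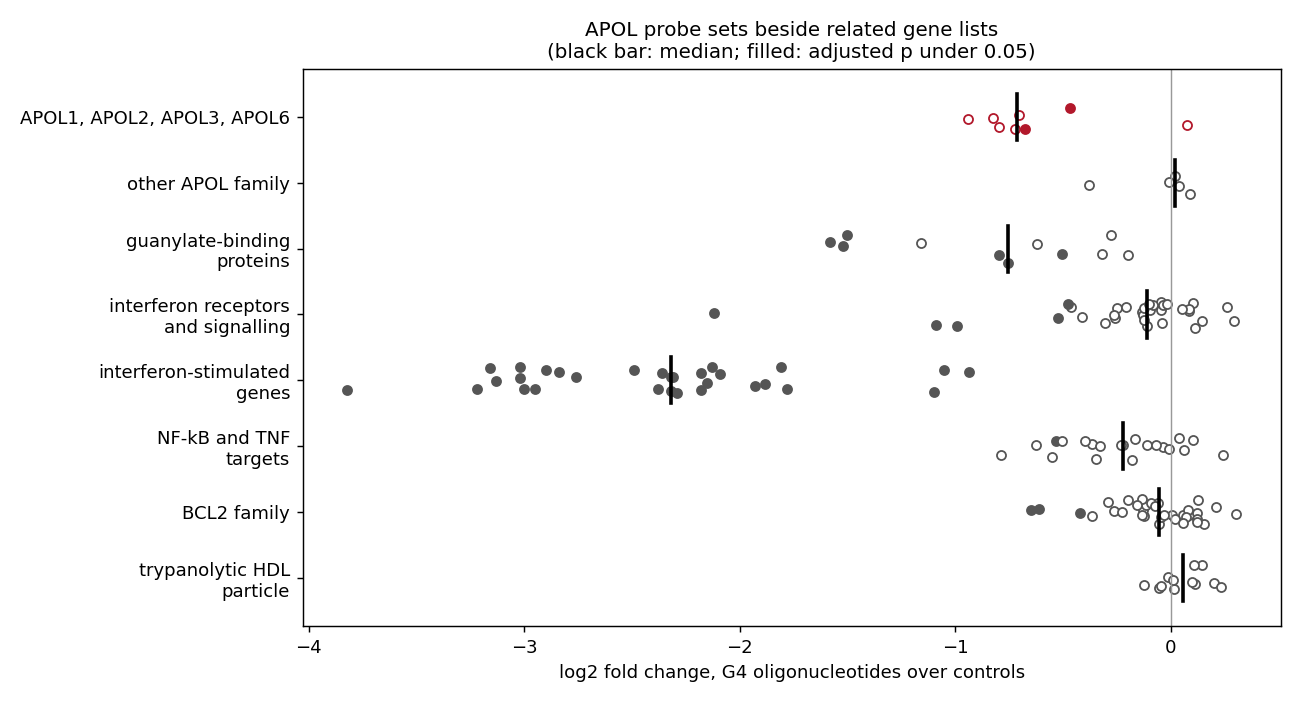
Log2 fold change of the G4 oligonucleotides over the controls (horizontal axis) for the APOL probe sets and related gene lists (rows), 1 point per probe set, filled where the limma adjusted p is under 0.05, with a black bar at each median. The APOL median of -0.71 lies next to that of the guanylate-binding proteins at -0.75, and that of the interferon-stimulated genes, a list chosen with its response known, lies at -2.32. The APOL genes and the other lists were also chosen with earlier results of these data known.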

How the data were processed

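Per the labels' protocols, 100 ng of RNeasy-purified total RNA was turned into biotinylated cRNA for each array. The deposited table holds log2 values made with RMA, per the submitters' processing notes (version not given in the sources used here). Each probe set was centred to a median of 0 over the 12 arrays, as the values show, so level and detection are unknown and the number of arrays limits the precision. The base 2 is taken from RMA. Of 54675 probe sets, 62 array controls were left out. The platform annotation of 2016 gave gene names, and RefSeq the gene order (GRCh38.p14). No coordinates were used.

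The other 54613 probe sets entered limma 3.58.1 (R 4.3.3), with Benjamini-Hochberg adjustment and a threshold of 0.05. The model for treatments had terms for treatment and line, and the model for lines had terms for line and class within line, each with 6 residual degrees of freedom. Replicate numbers are lines, which pairs the arrays, so cell line is the block. Named genes are the members, the 5 genes most like each, and up to 4 per list by smallest p. TNFAIP3 and the second probe sets of list genes were added after their values were seen. The members and lists were chosen with earlier results of these data known. The scripts were tested on simulated data. Alternatives were quantile normalization, other variance priors, 1 probe set per gene, a filter on SD, no block, and left-out arrays and lines.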

Additional observations from a re-analysis of the deposited data

Results flagged for a closer look

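APOL6 on probe set 1557236_at responded differently in the 3 cell lines (limma F test of the interaction, adjusted p = 0.00898). Its log2 fold change for the G4 oligonucleotides against controls was -2.27 in PC-3, while HBC4 had -0.36 and MKN74 -0.19. The other APOL6 probe sets had the same order of PC-3 lowest, with interaction adjusted p-values of 0.0523 (219716_at), 0.326 (241869_at) and 0.35 (1557116_at).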

How the results depend on the processing

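With 12 arrays and 1 per line and treatment, the calls of single APOL probe sets for the G4 oligonucleotides against controls over the 3 lines are close to the threshold, while the signs of their log2 fold changes held under every alternative run. The count of 2 of 8 probe sets for that comparison became 0 with no replicate block, 0 without cell line PC-3, 0 without cell line HBC4 and 1 without cell line MKN74 (APOL3), and leaving out 1 array at a time gave 0 to 3. With 1 probe set per gene, 3 of 4 genes fell (APOL1, APOL2 and APOL3), against 2 of 4 in PC-3 and 2 of 4 in HBC4. In that setting 0 of 4 passed the interaction. It kept 221653_x_at for APOL2, without 221013_s_at, which hardly moved, and 241869_at for APOL6. That setting also gave 3 of 4 for HBC4 against PC-3, 2 of 4 for MKN74 against PC-3 and 3 of 4 for HBC4 against MKN74. The shares of all genes that passed in that setting are not given here. Leaving out probe sets with an SD below the median SD also dropped 221013_s_at of APOL2 from the fit. With this filter 3 of the APOL probe sets left passed over the 3 lines, 2 in HBC4 and 2 for the interaction. Quantile normalization gave 2 for the interaction and 6 of 8 for HBC4 against PC-3. Leaving out 1 array at a time gave 2 to 6 in PC-3, 0 to 2 in HBC4, 0 in MKN74, 1 to 2 for the interaction, 4 to 5 for HBC4 against PC-3, 5 for MKN74 against PC-3 and 6 for HBC4 against MKN74. The 4 comparisons of single treatments stayed at 0 called under every alternative run. The cause of these changes was not tested, apart from fewer probe sets or arrays in the fit.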
